A study of Mus musculus with 2 samples.

Results

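The Mef2 factors Mef2a, Mef2c and Mef2d, the related factor Srf, and the muscle cofactors Smyd1, Vgll2 and Rbm24 were described in the ear of mouse fetuses with and without the genes that found skeletal muscle. They were chosen by name, with earlier results of these data known. Taken were the genes of the array whose probe sets the platform annotation pairs with exactly 1 of these 7 symbols. They have 8 probe sets, 2 for Mef2d and 1 for each of the other 6 genes, out of 35557 probe sets and 19938 named genes in all. The ear was taken at E18.5, shortly before birth, from BALB/c mice in both groups. 1 array held RNA of fetuses labelled Myf5-/-:MyoD-/-, null for both genes and here called the double knockout, and 1 array held wild-type RNA. Not named in the labels are the part of the ear taken, the number of fetuses behind each array and the way the alleles were made. With 1 array per genotype the comparison has no replicate check, and no test or p-value is possible.

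Skeletal muscle is specified by the bHLH factors Myf5 and Myod1, which bind E-boxes in DNA and are followed by Myog and Myf6 as muscle cells differentiate. Mef2 factors and Srf share a MADS domain, the DNA-binding fold that recognises AT-rich sites: the MEF2 site for Mef2a, Mef2c and Mef2d, and the CArG box for Srf. Mef2 factors act with the bHLH factors on muscle genes, and Srf drives actin and other cytoskeletal genes in skeletal, heart and smooth muscle as well as growth-induced genes in many cells. Smyd1 is a muscle-restricted methyltransferase that myofibril assembly needs, Vgll2 is a cofactor of the TEAD factors, and Rbm24 is an RNA-binding protein that governs splicing in heart and skeletal muscle. In a fetal ear, muscle can come from the auricular muscles of the outer ear and the small muscles of the middle ear. Mef2a, Mef2d and Srf are widely expressed, and Mef2c is also known from endothelium, hypertrophic cartilage, cortical neurons and cells of the immune system.

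The start regions of 4 of these genes are shown because they carry the DNA motifs of the factors at hand or belong to the gene furthest below the wild type. Each line holds 300 bases, 250 before and 50 after a RefSeq transcript start in the mouse assembly GRCm38.p6, the build of the sequence table; that of the array is not named. Capitals mark every match on either strand to an E-box (CANNTG), a CArG box, a MEF2 site or an MCAT element (CATTCC, bound by TEAD factors).

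Smyd1 (chr6:71262232-71262531, minus strand): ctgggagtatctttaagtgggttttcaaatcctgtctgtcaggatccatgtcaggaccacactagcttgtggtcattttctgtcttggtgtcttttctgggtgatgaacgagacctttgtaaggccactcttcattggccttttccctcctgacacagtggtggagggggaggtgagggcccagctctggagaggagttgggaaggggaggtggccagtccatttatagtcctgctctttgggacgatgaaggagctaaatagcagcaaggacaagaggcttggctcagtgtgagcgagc
Rbm24 (chr13:46418050-46418349, plus strand): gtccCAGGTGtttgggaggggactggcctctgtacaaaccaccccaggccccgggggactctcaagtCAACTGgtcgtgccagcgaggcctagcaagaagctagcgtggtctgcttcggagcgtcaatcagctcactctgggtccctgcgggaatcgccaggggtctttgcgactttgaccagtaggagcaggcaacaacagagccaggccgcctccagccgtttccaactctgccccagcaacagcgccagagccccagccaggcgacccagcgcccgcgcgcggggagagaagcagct
Srf (chr17:46556113-46556412, minus strand): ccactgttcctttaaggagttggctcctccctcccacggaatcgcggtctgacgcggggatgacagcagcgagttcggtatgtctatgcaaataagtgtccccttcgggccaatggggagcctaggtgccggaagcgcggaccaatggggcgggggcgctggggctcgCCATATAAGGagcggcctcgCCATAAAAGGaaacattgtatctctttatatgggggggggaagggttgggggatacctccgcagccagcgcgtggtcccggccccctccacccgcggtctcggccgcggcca
Mef2a (chr7:67372809-67373108, minus strand): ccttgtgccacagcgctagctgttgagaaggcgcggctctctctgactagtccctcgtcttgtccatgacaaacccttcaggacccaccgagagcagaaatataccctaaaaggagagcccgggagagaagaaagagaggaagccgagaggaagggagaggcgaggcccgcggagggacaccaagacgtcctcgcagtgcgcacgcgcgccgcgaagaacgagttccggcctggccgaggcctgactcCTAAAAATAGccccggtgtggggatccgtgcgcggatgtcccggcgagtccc

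The Srf window held 2 CArG boxes, CCATATAAGG and CCATAAAAGG, which begin 82 and 62 bases before the start, so that the gene carries the motif its own protein binds. Of 32851 RefSeq windows of this length, 1.63% held a CArG box. The Mef2a window held 1 MEF2 site, CTAAAAATAG, which spans the start and which 3.19% of all windows had. The Rbm24 window held 2 E-boxes, CAGGTG and CAACTG, and the Vgll2 window 1, CACGTG, whereas the Smyd1 window had none of the 4 motifs. E-boxes are common at this length, being in 72.3% of all windows. All 7 genes were found in the table, with 9 windows because Mef2c has 3. Over the 9 windows, 4 held an E-box, 1 a CArG box, 1 a MEF2 site and 1, at a start of Mef2c, an MCAT element, which 14.7% of all windows had. No 2 matches of different motifs overlapped. A match shows that the letters are present, and no binding was measured here.

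The targeted genes come first because they check the labels. Myod1 read 6.38 in the double knockout and 6.95 in the wild type on the log2 signal scale. Myf5 read 5.25 in the double knockout, below the median of that array, and 5.94 in the wild type, just above the median of its own. Nothing at hand places their probe sets inside or outside the deleted parts of the genes, and a probe outside them checks nothing. The later factors lay further apart: Myf6 read 4.27 in the double knockout and 8.04 in the wild type, and Myog 4.52 in the double knockout and 7.03 in the wild type. Myf6 neighbours Myf5 on its chromosome, so a local effect of that allele and an effect on muscle cannot be told apart. Of 15 inner ear markers, 11 were above the array median on both arrays and 12 on at least 1, and the median difference of the 12 was -0.0053. Oc90, an otoconial protein, read 11.26 in the double knockout and 11.28 in the wild type, Coch 8.95 and 8.63, and Tecta, of the tectorial membrane, 8.76 and 8.74. Of hair cell genes, named after their values were seen, Atoh1 read 6.17 on both arrays and Myo7a 6.07 in the double knockout and 6.03 in the wild type, while Pou4f3 and Gfi1 were below the median on both.

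All 7 genes read lower in the double knockout, 4 of them by 2-fold or more and 3 by less. Smyd1, Vgll2, Rbm24 and Mef2c were the 4, and Srf, Mef2d and Mef2a the 3. Differences here are the log2 signal of the double knockout less that of the wild type, after values below each array's median, 5.70 in the double knockout and 5.65 in the wild type, were raised to it. Where 1 side was raised, the difference is a bound and the fold is given as at least that size. Of all 12458 genes above the median on at least 1 array, 213, or 1.71%, were 2-fold or more lower, and 60, or 0.482%, were 2-fold or more higher. The median difference was -1.04 over the 7 genes and -0.0052 over all genes, of which 50.8% were below 0. In whole tissue, fewer muscle cells, less RNA per cell and a different share of other tissue on each array cannot be told apart. Markers of other tissues also differed between the arrays, as given below.

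**Figure D1:**
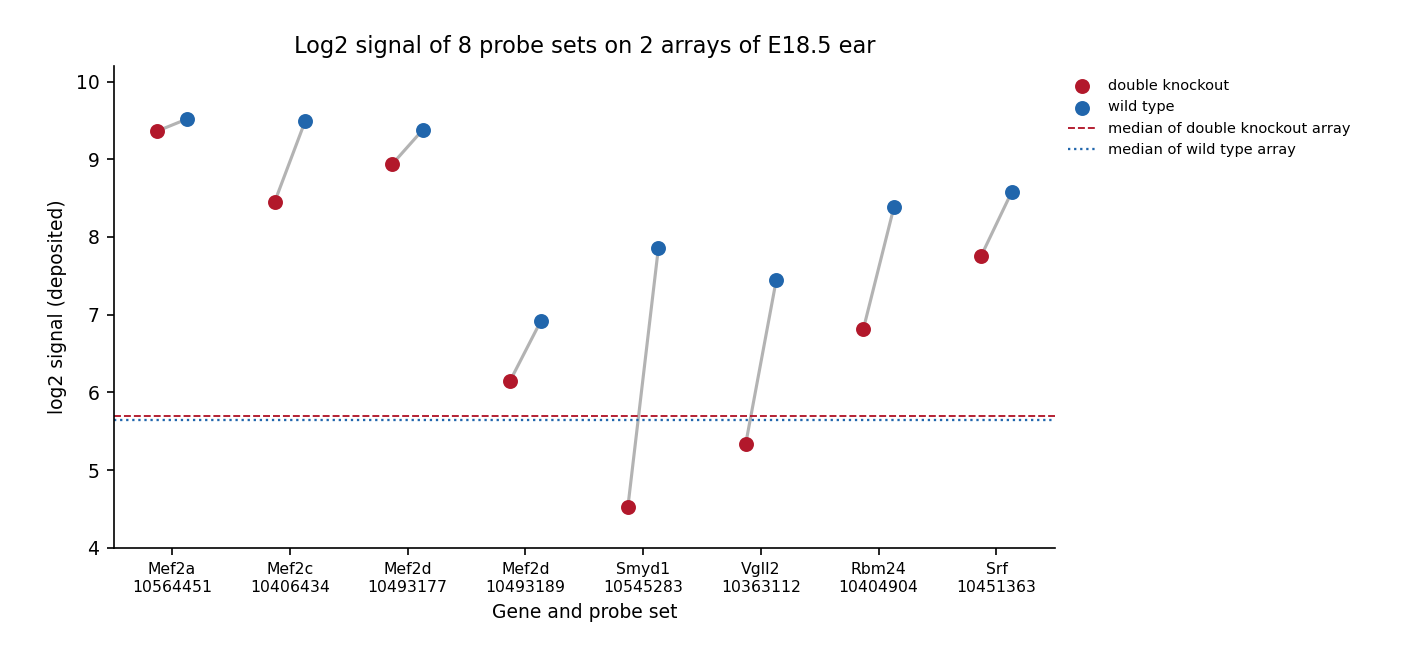
Deposited log2 signal (vertical axis) of the 8 probe sets of the 7 genes, labelled by gene and probe set. Each red point is the double knockout array and each blue point the wild-type array, the horizontal lines are the array medians, and the double knockout lies lower in all 8 pairs, below the median for Smyd1 and Vgll2.

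Smyd1, the muscle methyltransferase, stood furthest from the wild type. Its probe set (10545283) read 4.52 in the double knockout and 7.86 in the wild type, at least 4.48-fold lower. The double knockout value lay 1.18 below that array's median on the log2 scale, and the wild-type value 2.22 above its own. As deposited, without raising low values, the same 2 signals differ by -3.34.

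Vgll2, the TEAD cofactor known from differentiating muscle, showed the same form. Probe set 10363112 read 5.33 in the double knockout and 7.44 in the wild type, at least 3.35-fold lower. Its double knockout signal lay 0.37 below the array median. Both calls rest on where low values are set: with low values raised to each array's 75th percentile, the bounds shrink to differences of -0.51 for Smyd1 and -0.093 for Vgll2.

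Rbm24, the splicing regulator, was measured on both arrays. Probe set 10404904 read 6.82 in the double knockout and 8.39 in the wild type, 2.97-fold lower. Its double knockout signal stayed 1.12 above the array median, unlike those of Smyd1 and Vgll2.

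Mef2c, the Mef2 gene induced in differentiating muscle, read 8.45 in the double knockout and 9.49 in the wild type at probe set 10406434, 2.06-fold lower. The double knockout signal was 48.5% of the wild-type signal on the linear scale and lay 2.75 above the array median on the log2 scale. The value sits at the 2-fold mark: quantile normalization of the arrays gave -0.99, and a pseudocount of the median signal gave -0.94.

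Mef2d differed less. Its main probe set (10493177) read 8.94 in the double knockout and 9.38 in the wild type, 1.36-fold lower, and its other probe set (10493189) read 6.15 and 6.91, 1.70-fold lower. Both probe sets thus went the same way by different amounts. Mef2a was the closest to the wild type, with 9.36 in the double knockout and 9.52 in the wild type at probe set 10564451, 1.12-fold lower.

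Probe sets of 1 gene gave differences that varied with a standard deviation of 0.17 over the 619 genes with several probe sets above both medians. The Mef2a difference of -0.16 is no larger than that, and those of Mef2c and of both Mef2d probe sets are larger. It measures probe noise, and the spread between fetuses is unknown with 1 array per genotype.

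Srf, the MADS-domain relative of the Mef2 factors, read 7.76 in the double knockout and 8.58 in the wild type at probe set 10451363, 1.77-fold lower. Its difference of -0.83 lay between those of Mef2d and Mef2c, short of 2-fold. The Srf signal in the double knockout was 2.06 above the array median.

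Set among all 12458 genes, 81 had a difference as low as or lower than that of Smyd1, 111 than that of Vgll2, 123 than that of Rbm24 and 202 than that of Mef2c. For Srf the number was 273, for Mef2d 715 and for Mef2a 2814. Mef2a thus lay well inside the main body of genes, as the distribution of differences shows, and the 4 genes past 2-fold lay in its lower tail.

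**Figure D2:**
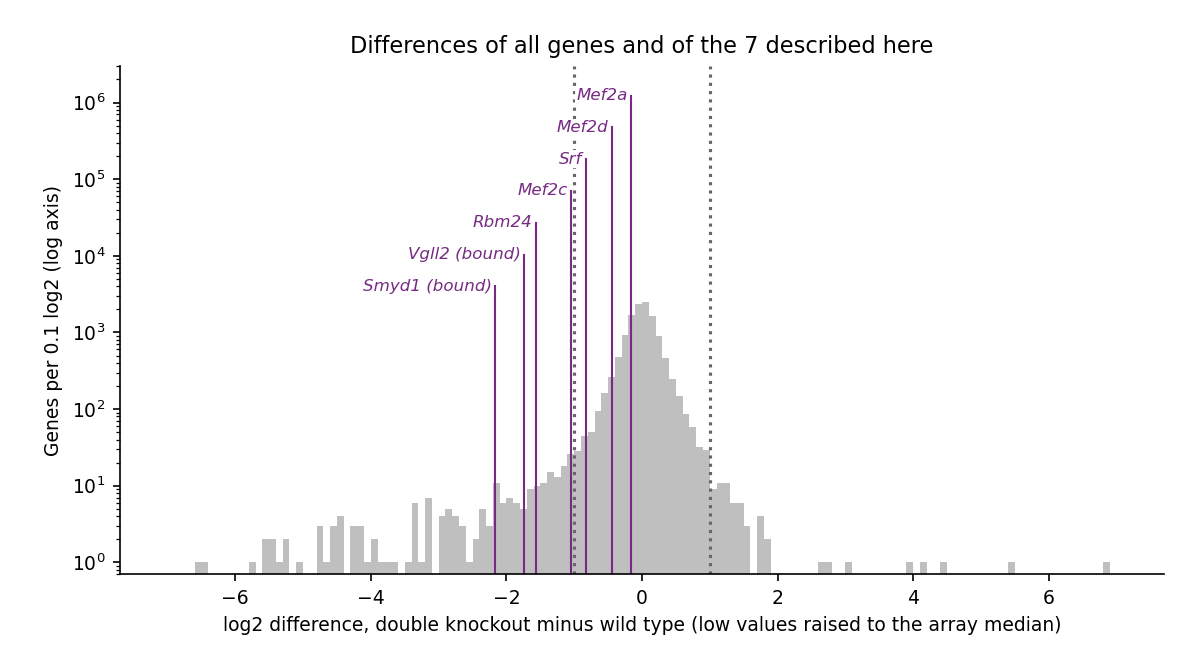
Histogram of log2 differences (double knockout minus wild type, horizontal axis) of the 12458 genes above the array median on at least 1 array, with the number of genes on a log axis. Vertical purple lines mark the 7 genes, from Smyd1 at -2.16 (a bound) to Mef2a at -0.16, and dotted lines mark 2-fold.

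Within their gene families the members stood out to different degrees. Of the 5 Smyd genes, Smyd1 was the 1 that was 2-fold or more lower. Smyd2 differed by -0.03, Smyd3 by -0.01, Smyd4 by 0.30 and Smyd5 by 0.12; none of these methyltransferases is restricted to muscle. Of the Vgll genes, Vgll3 read 7.86 in the double knockout and 8.55 in the wild type, a difference of -0.69, Vgll4 differed by 0.05, and Vgll1 was below the median on both arrays. Among the TEAD factors that Vgll proteins bind, Tead4, which is known from muscle differentiation, read 5.82 in the double knockout and 6.66 in the wild type, a difference of -0.85. Its double knockout value lies just above that array's median of 5.70, so this difference is close to a bound. Tead1 differed by -0.57 and, at its other probe set, by -0.44, Tead2 by 0.12 and Tead3 by 0.05. None of the 8 measured genes of the VGLL, TEAD and YAP list beside Vgll2 passed 2-fold, and their median was -0.27. Mef2b was not analysed here.

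Partners of the Mef2 factors stayed within 2-fold. Of 22 listed genes beside the MEF2 family, all were measured, among them class II histone deacetylases, coactivators, and calcium- and stress-activated kinases and phosphatases. All 22 were within 2-fold, with a median of -0.02 and a range from -0.48 to 0.22. The coactivators Crebbp and Carm1 differed by 0.02 and 0.06. Of 14 listed partners and relatives of Smyd1, 12 were measured, with a median of -0.0080 and 11 within 2-fold. Hsp90aa1, the chaperone, differed by -0.08, Naca by -0.0066 and Hdac3 by 0.07. Hsp90aa1 had 3 probe sets, which can share sequence with near-identical copies of the gene elsewhere. The 1 gene past 2-fold was Unc45b, a muscle chaperone of myosin named after its value was seen, which read 5.44 in the double knockout and 6.91 in the wild type, at least 2.31-fold lower.

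Among 13 other RNA-binding and splicing factors, 12 were measured and 11 were within 2-fold, with a median of -0.11. The exception was Rbm38, the close relative of Rbm24, named after its value was seen. It read 7.81 in the double knockout and 9.17 in the wild type, 2.57-fold lower. The widely expressed factors Ptbp1, Qk and Mbnl2 differed by -0.0021, -0.18 and -0.07. Other probe sets of Ptbp1 and Qk above both medians went the other way, at 0.41 and 0.26.

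The SRF cofactor list had 10 of 12 genes above the array median, with 9 within 2-fold and a median difference of -0.20. The exception was Fhl1, a LIM protein abundant in skeletal muscle, which read 8.68 in the double knockout and 11.03 in the wild type, 5.10-fold lower. Mrtfb, an actin-regulated coactivator of Srf, differed by -0.51 at its main probe set and by 0.10 and 0.02 at its other probe sets, which go the other way. The ETS factor Elk3 differed by -0.22. Myocd, the coactivator of heart and smooth muscle, and Gata4, both named after their values were seen, were below the median on both arrays.

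**Figure D3:**
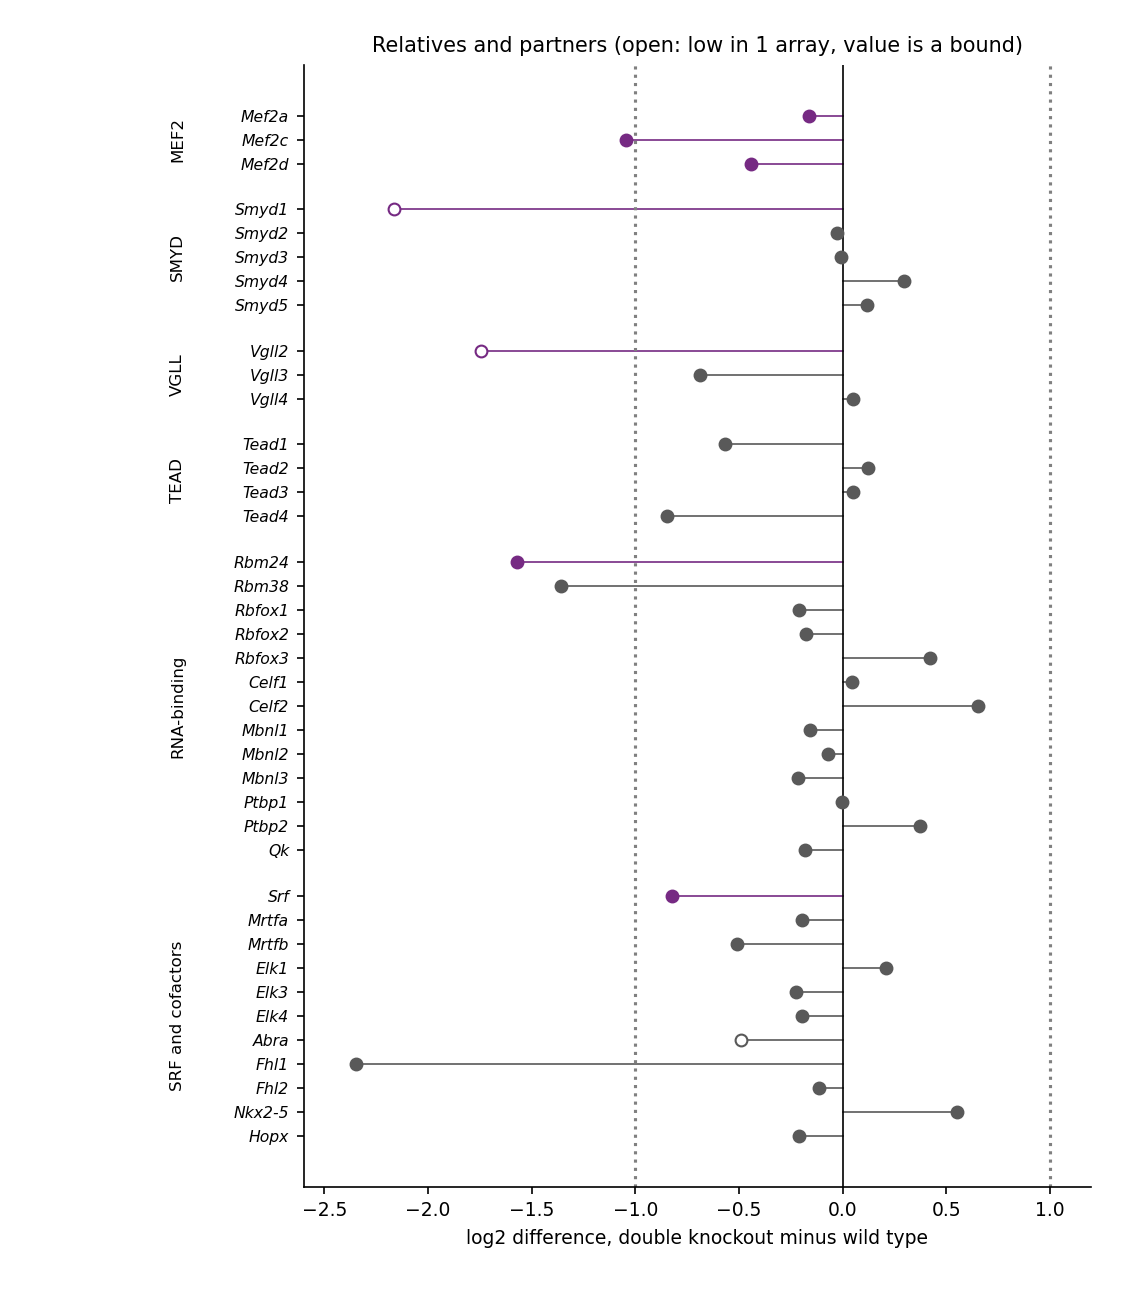
Log2 difference (double knockout minus wild type, horizontal axis) of the relatives and partners of the 7 genes, grouped by family, for genes above the median on at least 1 array. Purple marks the 7 genes, open circles mark bounds, and dotted lines mark 2-fold; Smyd1 is the furthest of its family, while Rbm38 lies beside Rbm24.

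Genes known to be driven by Mef2 factors were lower in most cases: 15 of 20 by 2-fold or more, 0 higher and 5 within 2-fold, with a median of -2.78 in which 12 values are bounds. Ckm, the muscle creatine kinase, read 6.21 in the double knockout and 11.51 in the wild type, 39.5-fold lower, and the glycogen phosphorylase Pygm was 22.5-fold lower. Of the 5 within 2-fold, Aldoa was named by signal and the others after their values were seen. Aldoa differed by -0.31, Ppargc1a by -0.03, Kcnj11 by -0.14, Nr4a1 by -0.52 and Klf2 by -0.04. Kcnj11 read 5.84 in the double knockout and 5.99 in the wild type, close to the array medians. Another probe set of Ppargc1a differed by -0.57. The genes that were lower are themselves muscle genes, so the list does not separate Mef2 activity from the amount of muscle.

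Of the SRF target genes, 17 of 19 were measured, 5 were 2-fold or more lower, 12 were within 2-fold and 0 were higher, with a median of -0.50. The sarcomeric actins Actc1 and Acta1 were 93.2-fold and 88.3-fold lower. They read 5.84 and 5.73 in the double knockout, just above that array's median of 5.70, so these folds are close to bounds. Tpm2 and Tpm1, tropomyosins, were 18.0-fold and 2.25-fold lower, and Acta2, the smooth muscle actin, was 2.02-fold lower. Actb, the cytoplasmic actin, read 12.63 in the double knockout and 12.55 in the wild type, a difference of 0.08. Acta1 is also on the list of skeletal muscle markers, and Srf activity and the amount of muscle cannot be told apart from these values.

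Transcripts whose splicing Rbm24 is known to govern were lower as whole genes, 9 of 12 by 2-fold or more, with 3 within 2-fold. The median was -2.39, in which 4 values are bounds. Neb, which encodes nebulin, had the largest bound, at least 26.7-fold lower, with 5.10 in the double knockout and 10.44 in the wild type. Naca differed by -0.0066. The deposited values give 1 signal per probe set, so splicing itself was not measured. Neb is also on the list of skeletal muscle markers, and an effect of Rbm24 and the amount of muscle cannot be told apart from these values.

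Markers of skeletal muscle were also lower in the double knockout. Of 20 markers 19 were measured, 18 were 2-fold or more lower and 0 higher, with a median of -4.74. The summed linear signal of all 20 was 816 in the double knockout and 29071 in the wild type. Every such sum given here adds the deposited signals of all genes of a list with a probe set, measured or not. Low values were not raised for it, so the double knockout sum of the markers includes signals below the array median. Of the 19, 13 were below the array median in the double knockout and 6 were above it there, among them Ckm, Acta1 at 5.73 and Tnnt3 at 5.90. The summed linear signal of the 7 genes was 1888 in the double knockout and 3244 in the wild type, a ratio of 0.58. For the skeletal muscle markers the ratio was 0.03. Such sums weigh the brightest probe sets most, which among the 7 genes are those of Mef2a, Mef2d and Mef2c. The ratios are therefore not comparable as shares of signal kept. In a list of 17 myogenic regulators, 14 were measured, 3 were 2-fold or more lower and 11 within 2-fold, with a median of -0.07. Mymk, which fuses myoblasts, was at least 6.93-fold lower, and the widely expressed Id2, Tcf4 and Tcf12 differed by 0.32, 0.43 and -0.08.

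Other muscle types gave mixed values. Of 13 heart markers 6 were below the median on both arrays, namely Nppa, Nppb, Myh6, Myl7, Tnni3 and Tbx5. The cardiac factors Nkx2-5 and Hand2 were above it on both, with 6.25 and 6.10 in the double knockout and 5.70 and 6.26 in the wild type. The choice of these 8 followed their values. Of the 7 measured, 4 were 2-fold or more lower. Myl4 was 23.4-fold lower, and Tnnt2, with 5.85 in the double knockout, close to the array median, was 9.96-fold lower. Myl3 was at least 2.68-fold lower, and Myl2, a MEF2 target named after its value was seen, at least 2.67-fold lower. Which type of muscle the signals of these 4 genes came from was not tested. For smooth muscle markers the median was -0.42, 8 of 10 were within 2-fold, Des was 22.4-fold lower, Acta2 had the value above and Myl9 differed by -0.58. Des is made by skeletal muscle as well. Their summed linear signal was 2432 in the double knockout and 5334 in the wild type.

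Markers of other cell types that express Mef2c went different ways. All 11 endothelial markers were measured and within 2-fold, with a median of 0.0014 and summed linear signals of 4717 in the double knockout and 4660 in the wild type; Emcn, Cdh5 and Eng differed by 0.21, -0.02 and 0.06. Of 16 cartilage markers 15 were measured, with a median of 0.0006, and Ibsp, Col2a1 and Cnmd differed by 0.24, 0.05 and 0.21. The exception was Col10a1, the collagen of hypertrophic cartilage, which read 6.34 in the double knockout and 7.44 in the wild type, 2.14-fold lower. The macrophage and B cell list had 10 of 14 genes measured, all within 2-fold, with a median of -0.28 and 9 of the 10 below 0. Its summed linear signals were 2586 and 2931, and Ebf1, Csf1r and C1qb differed by -0.01, -0.29 and -0.32. Ebf1 weighs most in these sums. Of B cell genes, named after their values were seen, Cd79a and Pax5 were below the median on both arrays. Cd79b read 5.99 in the double knockout and 5.96 in the wild type, and the cells behind the Ebf1 signal were not tested. Cortical neuron markers went the other way, with 6 of 13 measured genes 2-fold or more higher in the double knockout and 0 lower. The median was 0.86, in which 3 values are bounds. These are Tbr1, Neurod6 and Emx1, named after their values were seen, which entered through the double knockout array alone. Summed linear signals of the cortical list were 4615 in the double knockout and 3243 in the wild type. Fezf2 was 3.49-fold higher, Neurod2 2.12-fold higher, and Stmn2 and Elavl3 differed by 0.21 and 0.72. The part of these cell types in the Mef2c value was not tested.

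Markers of other tissues also differed between the arrays. Salivary gland markers were higher in the double knockout, 8 of 9 measured by 2-fold or more. Of the 9 values 7 are bounds, of genes that entered through the double knockout array alone. Summed linear signals of the salivary list were 11298 in the double knockout and 459 in the wild type, where the sum includes signals below the array median. Bpifa2, Smgc and Prol1 were at least 113-fold, 42.2-fold and 21.4-fold higher. Of 10 measured adipocyte markers 4 were 2-fold or more higher, with summed linear signals of 9095 in the double knockout and 5031 in the wild type; Retn was 3.45-fold higher, and Ucp1, Agpat2 and Fabp4 differed by 1.26, 1.14 and 0.47. The part of this in the values of the 7 genes was not tested.

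**Figure D4:**
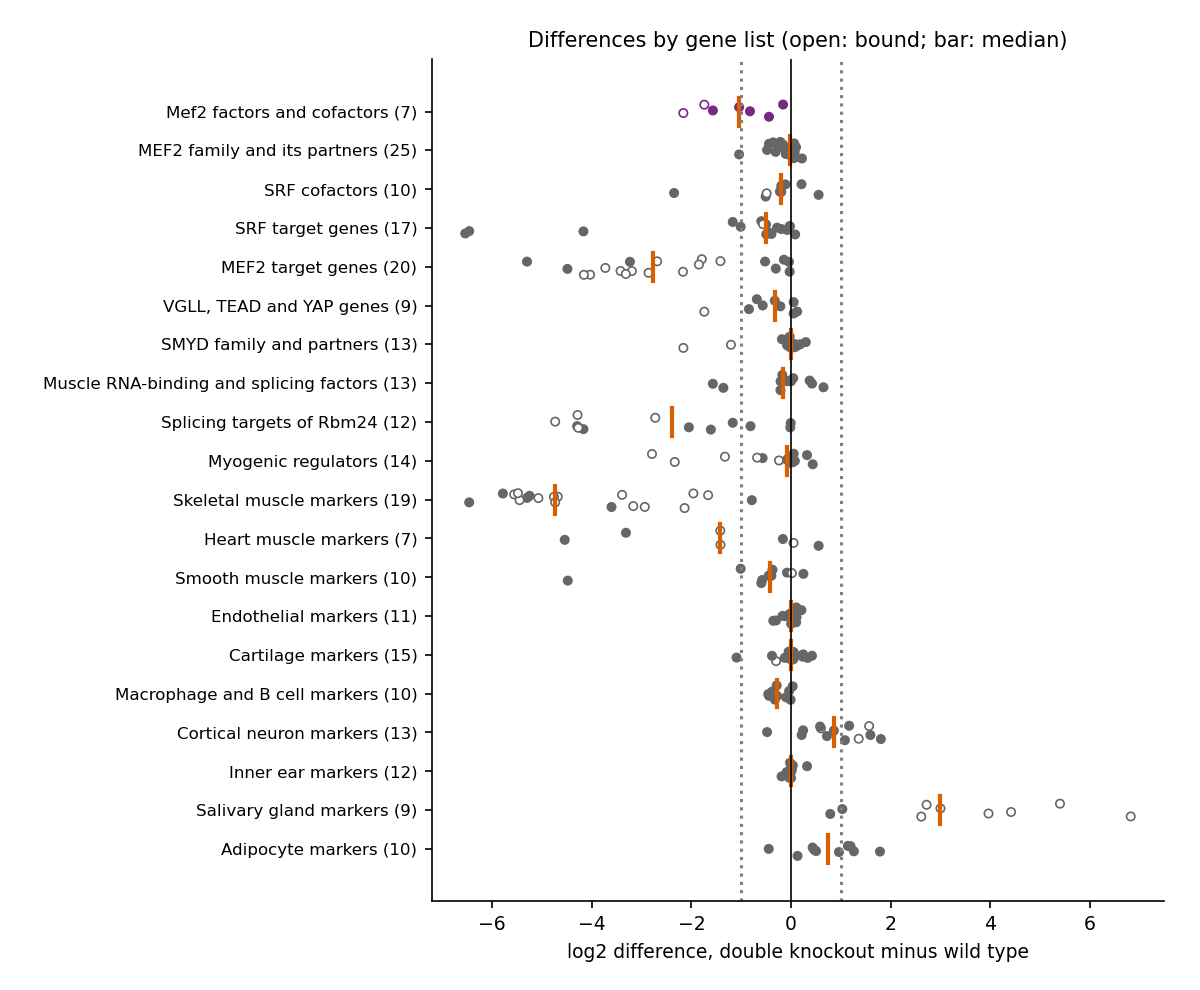
Log2 difference (double knockout minus wild type, horizontal axis) of every measured gene of each list, with the number measured in brackets, open circles for bounds and an orange bar at the list's median. The 7 genes have their median at -1.04, between the skeletal muscle markers at -4.74 and the MEF2 partners near 0.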

How the data were processed

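Total RNA of E18.5 ear was extracted with Trizol and 6 µg was made into biotin-labelled cRNA, per the labels' protocols. The authors deposited 1 log2 value per probe set and array for 2 arrays. The submitters' processing notes name MAS5 without a version. MAS5 reads mismatch probes, which whole-transcript arrays such as this one lack, so how the values were made is unsettled. The log base was read as log2 from a range of 0.75 to 13.27. For the background correction, the normalization between arrays and the genome build the entry is the same: not given in the sources used here. Values were used on their deposited scale, and the number of arrays limits their precision.

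Gene names came from the platform annotation, updated by Entrez identifier through RefSeq of GRCm38.p6. It pairs 21789 probe sets with 1 gene, 1621 with several and 12147 with none. Each gene is represented by its brightest probe set (mean linear signal over both arrays), and every probe set of the 7 genes is given. Each array's 50th percentile was the floor, and genes above it on at least 1 array entered, called measured here. Signals of different probe sets are not compared as levels, and summed linear signals are set side by side between the arrays alone. All differences are descriptions, with no test.

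The 7 genes, the 19 other lists and the settings were chosen with earlier results of these data known, and the lists rest on general knowledge of the genes. Named from each list were the 3 genes of highest signal and the furthest gene past 2-fold in either direction, the other members of the MEF2, SMYD, VGLL and TEAD families, and the targeted genes with Myog and Myf6. Others are said to be named after their values were seen. Quantile normalization, equal medians, loess (span 0.3), other floors, no floor, a pseudocount, the median over probe sets and folds of 1.5 and 3 were the alternatives. The calculation was run on simulated data in which genes of high signal were changed by known folds. That simulation used less noise than the spread between probe sets and did not check bounds, so it tests the arithmetic alone. Python 3.11.15, numpy 2.4.6, pandas 2.3.3, statsmodels 0.14.6 and matplotlib 3.10.9 were used. Promoter motifs were searched in RefSeq sequence. As a check of strand, TATAAA lay 40 to 20 bases before the start in 309 of 16291 minus-strand windows as written, and in 67 if read on the opposite strand.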

Additional observations from a re-analysis of the deposited data

How the results depend on the processing

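All 7 genes were below 0 under each of the 8 alternatives to scaling, floor, pseudocount and probe set choice. Mef2a, Mef2c, Mef2d and Srf moved by less than the spread between probe sets of a gene (0.17). Smyd1 read -3.34 for a floor at the 25th percentile and for no floor, -0.51 for a 75th-percentile floor and -1.92 for a pseudocount of the median signal. Vgll2 read -2.11, -2.11, -0.093 and -1.28 under the same settings in that order. Rbm24 read -1.04 for a 75th-percentile floor and -1.22 with the pseudocount. A higher floor shortens these bounds by its own construction. The number of the 7 genes at least 2-fold lower was 4 under the settings reported, 3 with quantile normalization and with the pseudocount, where Mef2c read -0.99 and -0.94, and 2 for a 75th-percentile floor. At 1.5-fold the number was 5, and at 3-fold 2. The counts over all genes under these settings are given next.

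Among all 12458 genes the counts past 2-fold were 213 lower and 60 higher. The number of genes that enter changes with the floor, so counts under different floors are not comparable without it. For a 75th-percentile floor the counts were 111 and 21 of 6372 genes. With the reported floor and 12458 genes, they were 451 and 280 at 1.5-fold, and 120 and 16 at 3-fold. With no floor, 279 of 19938 genes were lower and 92 higher, and with the pseudocount 159 of 19938 were lower and 34 higher. Scaling alternatives left between 206 and 219 lower genes. The median difference over all genes lay between -0.02 and 0.05 under every alternative. Of the list medians, those of the skeletal muscle markers ran from -5.28 to -3.10, those of MEF2 targets from -3.38 to -1.55, and those of MEF2 partners with the Mef2 genes from -0.04 to 0.0036. The median of the heart list ran from -1.5 to -0.03. No paired analysis was possible because each genotype has 1 array.

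Double knockout signals below the array median limit Smyd1 and Vgll2 to bounds, and 6 of the 7 genes rest on 1 probe set each.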

Other observations

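Among the RNA-binding factors related in function to Rbm24, 3 that neurons express were on the other side of 0. Celf2 read 9.64 in the double knockout and 8.99 in the wild type, a difference of 0.65, Rbfox3 7.43 and 7.01, a difference of 0.42, and Ptbp2 9.19 and 8.82, a difference of 0.37. None passed 2-fold, and the other Celf2 probe set was below the median on both arrays. They were named after their values were seen. Camk2a, a kinase of Mef2 signalling that neurons express, went the other way, with 7.23 in the double knockout and 7.71 in the wild type, as did Rbfox1, which neurons and muscle both express, at -0.21.

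The TEAD coactivators Yap1 and Wwtr1 read 8.43 and 8.51 in the double knockout and 8.75 and 8.73 in the wild type, differences of -0.33 and -0.22. Abra, a striated-muscle activator of Srf signalling, read 4.09 in the double knockout, below the array median, and 6.19 in the wild type, at least 1.40-fold lower. The choice of these genes, too, followed their values.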
